A study of Mus musculus with 3 samples.

Results

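The genes described here encode the cytosolic translation initiation and elongation factors of mouse regulatory T cells, a CD4 lineage that depends on the transcription factor Foxp3 and holds immune responses in check. They were chosen by symbol alone, as genes with a transcript annotated as protein_coding whose symbol begins with Eif1 to Eif6 or with Eef1 or Eef2, without the genes of the gamma subunit of eIF2. The rule gave 66 members among 21901 genes with such a transcript and 55536 mouse genes in the gene table. Polyadenylated RNA was sequenced from primary cells of 1 biological replicate in 3 libraries, which the labels call technical replicates and which are named here libraries 1, 2 and 3. Every library came from an adult male mouse of 4 months of the strain Foxp3CreERT2 x Rosa26YFP, in which the Foxp3 locus drives a tamoxifen-dependent Cre and Rosa26 carries a fluorescent reporter. The labels give no treatment, and they give bone marrow haematopoietic cells as the origin of the cells. The 3 libraries form 1 group, so no conditions were compared. Every spread and p-value given here reflects differences among libraries of 1 biological replicate, which the labels make technical. Markers of other cells differed strongly between the libraries, and whether they came from 1 pool of RNA or from separate sorts is not stated, so the spread may hold more than technical error.

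Protein synthesis begins when eIF2 brings the initiator tRNA to the small ribosomal subunit and eIF1, eIF1A, eIF3 and eIF5 join it there. The cap-binding complex eIF4F, made of eIF4E, eIF4G and eIF4A, recruits the mRNA, and the complex scans to the start codon. In elongation, eEF1A delivers each aminoacyl-tRNA, the eEF1B complex recharges eEF1A with GTP, eEF2 moves the ribosome by 1 codon, and eIF5A helps it past stretches that are hard to translate. Resting T cells hold idle ribosomes and raise translation when their receptor is engaged.

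The libraries held 9299054, 9188612 and 8284381 expected counts, which are read counts that a model shares out among genes and transcripts. All 6 markers listed for regulatory T cells and all 6 for T cells were detected, that is, they reached 1 TPM, a level per transcript length at a common library total, in every library. Markers of other cells were present as well. The summed TPM of 6 erythroid markers was 1685, 9.02 and 1497 in libraries 1, 2 and 3, that of 6 plasma cell markers 1982, 260.0 and 1340.2, that of 6 B cell markers 2338, 1825 and 1970.1, and that of 6 macrophage and monocyte markers 25.5, 18.4 and 39.6. For 6 neutrophil markers the sum was 45.7, 0.60 and 2.94, with Elane at 0 in every library, and for 6 progenitor markers 0.80, 2.25 and 3.08, with Gata2 at 0 in every library. Among them, the erythroid and plasma cell sums were low in library 2 alone and the neutrophil sum was high in library 1 alone. Most of the plasma cell sum was Igkc, at 1842, 201 and 1203 TPM. Igkc, Jchain and Mzb1 were lowest in library 2, while Xbp1, Prdm1 and Sdc1 were lowest in library 1, with Xbp1 at 8.20, 30.7 and 26.0 TPM. Fewer cells of a type and less RNA per cell cannot be told apart in such libraries.

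Detection was close to complete. Of the 66 members, 63 reached 1 TPM in every library, against 46.1% of all genes with a protein_coding transcript. The median level of the detected members was 57.2 TPM, and that of all detected genes with a protein_coding transcript was 20.1 TPM. Members took 2.75%, 2.47% and 2.61% of the expected counts of libraries 1, 2 and 3, and their summed level was 21206, 21053 and 22049 TPM. A single gene, Eef1a1, made up 43.6%, 41.6% and 43.4% of that sum. The 3 members below the limit were Eef1a2, Eif4e1b and Eef1akmt3. Eef1a2, the eEF1A paralog of muscle and neurons, and Eif4e1b, an eIF4E relative of oocytes, had 0 counts in each library, which allows up to 3 counts per library. The second transcript table listed Eif4e1b at 1.29, 2.24 and 2.00 TPM, so its detection depended on the table. Eef1akmt3, a lysine methyltransferase of eEF1A, had 0, 2 and 2 counts.

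**Figure D1:**
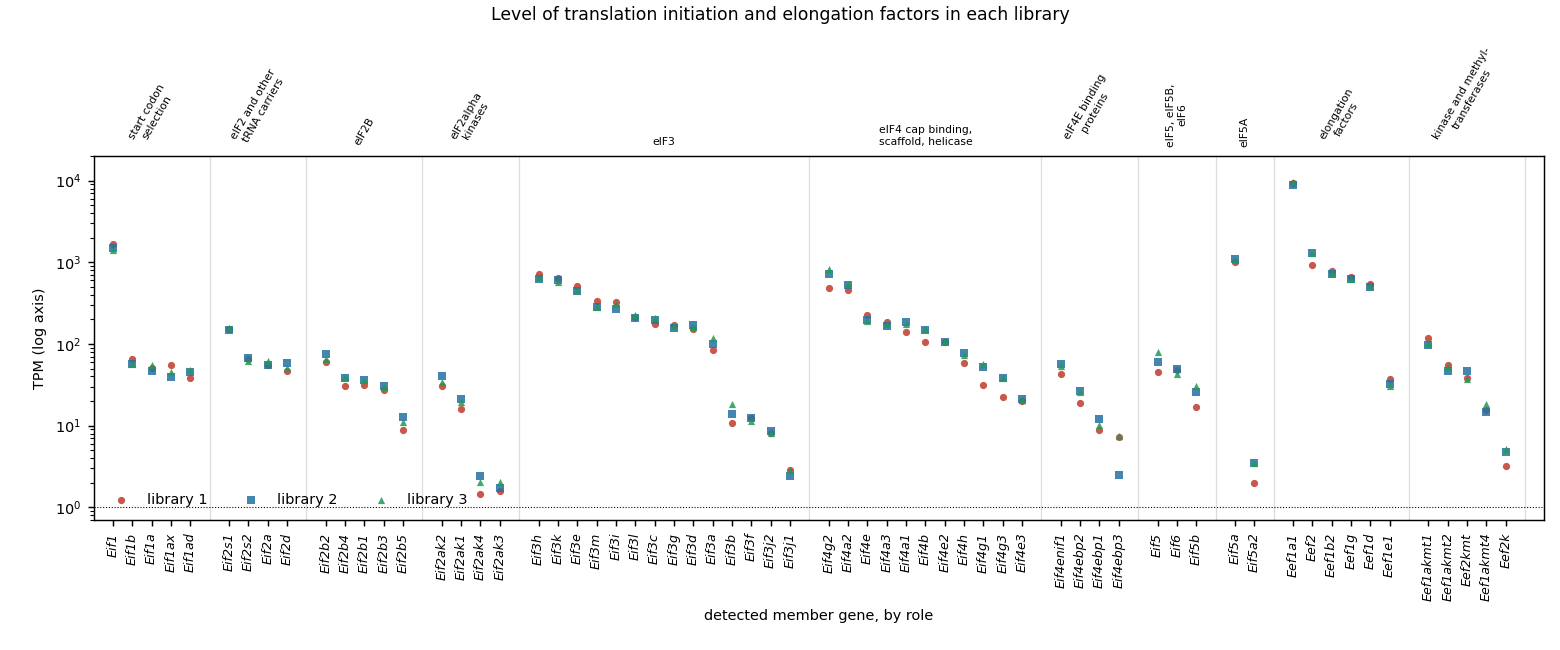
Level of the 63 detected members in TPM (log axis) in libraries 1 (circles), 2 (squares) and 3 (triangles), grouped by role and ordered by mean level within a role. The dotted line marks 1 TPM. Eef1a1 stood highest at 9194 TPM on average, and Eif2ak3 lowest at 1.79 TPM.

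The elongation factors were the most abundant role. Eef1a1 (ENSMUSG00000037742.14, mm10 chr9:78478449-78489151, minus strand) was at 9236, 8765 and 9579.5 TPM in libraries 1, 2 and 3, or 9194 ± 409 (SD, n = 3). Eef2, which encodes the translocase, was at 921, 1314 and 1285 TPM. By TPM, library 1 was the lowest for Eef2. In counts scaled to a common library size it stood at 0.89 of the others, and at 1.02 after scaling within bins of gene length, so the direction turned. In gene totals, the genes of the eEF1B exchange complex lay close to each other. Eef1b2 (the alpha subunit) was at 780.0, 713 and 730.4 TPM, Eef1g (gamma) at 665, 621 and 623 TPM, and Eef1d (delta) at 543, 495 and 509 TPM. The means ± SD of these subunits, 741 ± 34.9, 637 ± 24.7 and 515 ± 24.6 TPM, did not overlap. Only 34.6%, 31.8% and 35.6% of the Eef1b2 TPM lay in transcripts annotated as protein_coding. For Eef1g and Eef1d this share was over 94% in every library, so the order held for gene totals and not for coding transcripts. Eef1e1, whose product sits in the multi-tRNA synthetase complex, was far lower at 37.7, 31.9 and 30.8 TPM.

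Of the genes whose products modify elongation factors, the methyltransferase gene Eef1akmt1 was highest at 118, 98.3 and 102 TPM. Eef2k, the kinase that inhibits eEF2, was the lowest detected one at 3.22, 4.77 and 5.21 TPM. Eef2k was therefore read from only 93, 105 and 121 counts, while Eef2 had 21284, 25723 and 22892. Between these ends lay Eef1akmt2, Eef2kmt and Eef1akmt4, with means of 51.3, 40.9 and 16.3 TPM. The 2 eIF5A genes were far apart. Eif5a was at 999, 1088 and 1074 TPM, and its paralog Eif5a2 at 1.97, 3.45 and 3.51 TPM.

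Among the factors of start codon selection, Eif1 was at 1672, 1476 and 1395 TPM, the second highest mean of all members. Of the Eif1 TPM, 63.3%, 65.5% and 62.6% lay in transcripts annotated as protein_coding. For Eef2 this share was 97.9%, 97.3% and 98.1%, and for Eif5a 100% in every library. The rank therefore held for gene totals and not for coding transcripts. The Eif1 paralog Eif1b was at 65.0, 56.7 and 56.5 TPM. The eIF1A genes Eif1a, at 51.4, 47.0 and 55.5 TPM, and Eif1ax, at 54.9, 38.9 and 45.2 TPM, had means of 51.3 ± 4.25 and 46.3 ± 8.02 TPM, which did not differ beyond their spread. In gene totals Eif1ad, an eIF1A-like gene, had the lowest mean of this role, with 38.4, 45.1 and 48.5 TPM. It did not differ from the Eif1ax total beyond their spread.

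The initiator tRNA carriers were led by Eif2s1, the alpha subunit of eIF2 that stress kinases phosphorylate, at 154, 149 and 158 TPM. The beta subunit Eif2s2 was at 65.6, 67.5 and 62.5 TPM, and its range did not overlap that of Eif2s1. Much of this gap in gene totals lay in a short noncoding transcript of Eif2s1. The coding transcript Eif2s1-201 was at 68.8, 63.2 and 69.7 TPM, beside 61.5, 60.2 and 56.15 TPM for the coding Eif2s2-201. Eif2d, which can place a tRNA without eIF2, was the lowest at 46.1, 59.3 and 50.7 TPM, with a mean close to that of Eif2a, at 57.2 ± 3.35 TPM. The exchange factor eIF2B, which recharges eIF2 with GTP, was read from 5 subunit genes. Of these Eif2b2 was highest at 60.4, 74.8 and 66.2 TPM and Eif2b5, which encodes the catalytic subunit, was lowest at 8.87, 12.9 and 10.9 TPM. The other subunits Eif2b4, Eif2b1 and Eif2b3 lay at 36.0 ± 5.07, 34.6 ± 2.51 and 29.2 ± 2.05 TPM, so that Eif2b4 and Eif2b1 did not differ beyond their spread.

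Each kinase of eIF2alpha answers to a different stress. In gene totals, Eif2ak2 (PKR, which senses double-stranded RNA) was highest at 30.9, 40.4 and 34.3 TPM. Eif2ak1 (HRI, which senses haem) followed at 18.9 ± 2.52 TPM, and the order of these totals held in every library. The coding transcripts lay closer, with Eif2ak2-201 at 14.42, 19.14 and 15.16 TPM and Eif2ak1-201 at 13.47, 15.99 and 15.67 TPM. Their order turned in library 3. Eif2ak4 (GCN2, which senses uncharged tRNA) was at 1.46, 2.41 and 2.07 TPM and Eif2ak3 (PERK, which senses unfolded proteins in the endoplasmic reticulum) at 1.59, 1.74 and 2.04 TPM. These last genes overlapped in level and were read from 51 to 75 and from 45 to 56 counts.

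The eIF3 complex is the largest initiation factor, and its core subunits are thought to be present at 1 copy each. The mRNA levels of its 14 genes spanned a wide range. Eif3h, Eif3k and Eif3e were highest. Eif3h was at 714, 628 and 667 TPM, Eif3k at 644, 602 and 575 TPM, and Eif3e at 512, 446 and 459 TPM. Below them, Eif3m and Eif3i had means of 299.5 ± 28.9 and 299 ± 29.7 TPM, which did not differ beyond their spread. Eif3l, Eif3c, Eif3g and Eif3d followed at 215 ± 9.83, 194 ± 15.5, 165 ± 6.41 and 162 ± 7.65 TPM, and the scaffold Eif3a at 84.4, 98.7 and 117 TPM. At the low end stood a second scaffold subunit, Eif3b, at 10.8, 14.1 and 18.2 TPM, and Eif3f at 12.5, 12.4 and 11.4 TPM. No near-identical copy of Eif3f was found among the annotated transcripts. Its counts were 236, 143 and 139 over a listed gene length of 2169 bases.

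Eif3j2 and Eif3j1 were the lowest eIF3 genes. Both encode the loosely attached j subunit, and their leading transcripts were 99.4% identical over 2379 bases. Eif3j1 was at 2.90, 2.42 and 2.85 TPM and Eif3j2 at 8.09, 8.66 and 8.24 TPM. Reads cannot be divided with certainty between such copies. In the other gene table, Eif3j2 had 8, 2 and 4 counts against 144, 131 and 113 expected counts, and Eif3j1 58, 53 and 44 against 123, 87 and 93.

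Of the eIF4 genes, Eif4g2 (DAP5), a relative of eIF4G that lacks the eIF4E-binding part, was highest at 483, 717 and 820.4 TPM. Library 1 was the lowest of the 3, and no values overlapped the 31.4, 52.6 and 56.3 TPM of the main scaffold gene Eif4g1 or the 22.4, 38.7 and 37.9 TPM of its paralog Eif4g3. In gene totals, the helicase paralog Eif4a2 was at 457, 522 and 545 TPM, above Eif4a1 at 140.4, 186 and 175 TPM in every library. Only 35.5%, 34.6% and 34.5% of the Eif4a2 TPM lay in transcripts annotated as protein_coding. For Eif4a1 this share was 84.3%, 88.1% and 88.4%, so the gap was narrower in coding transcripts. Eif4a3, whose product is part of the exon junction complex rather than eIF4F, was at 175 ± 10.1 TPM. Of the cap-binding genes, Eif4e was at 226, 197 and 191 TPM, Eif4e2 (4EHP, a repressor) at 106, 105 and 109.6 TPM, and Eif4e3 at 20.3, 21.3 and 20.4 TPM, the lowest detected member of this role. The helicase cofactor Eif4b had a mean of 136 ± 25.5 TPM, and its relative Eif4h was at 59.3, 76.5 and 73.6 TPM.

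The eIF4E-binding proteins keep eIF4E from eIF4G until the kinase mTOR phosphorylates them. Eif4enif1 (4E-T), a carrier and repressor of eIF4E, was the highest gene of this role at 42.6, 57.1 and 53.3 TPM. Eif4ebp2 was at 19.0, 26.5 and 25.8 TPM and Eif4ebp1 at 8.84, 12.2 and 10.3 TPM, in the same order in every library. Eif4ebp3 was the lowest at 7.32, 2.50 and 7.42 TPM, from 34, 10 and 26 counts. Last, Eif5, whose product triggers GTP hydrolysis by eIF2 at the start codon, was at 45.2, 60.7 and 80.3 TPM. The values of Eif6, at 47.6, 50.0 and 42.8 TPM, lay partly within this range. Eif5b, which joins the subunits, was the lowest of its role at 16.9, 26.0 and 30.4 TPM.

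How far the libraries differed was tested with a chi-square test of each gene's counts against the TMM-scaled library totals, with adjustment over all 13071 genes tested. Of the 63 members tested, 44 differed at an adjusted p under 0.05, while 54.3% of all genes did. Only 7 of the 63 were both called and 1.5-fold or more apart between their highest and lowest library, against 25.0% of all genes. The median ratio of the highest to the lowest scaled count was 1.28 for members and 1.37 for all genes tested. The detected members had a median level of 57.2 TPM, against 17.5 TPM for the detected genes among all those tested. A gene with more counts is called at a smaller difference and has less counting error in its ratio. The comparisons with all genes were not matched for counts. Between libraries 2 and 3 alone, 16 of 63 members differed, against 17.5% of all genes.

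Most of the difference lay between library 1 and the others. In 28 of the 63 members the count was called and highest in library 1, by a ratio of 1.2 or more to the mean of the others, against 19.7% of all genes tested. In 4 members, Eif4g2, Eif4g3, Eif5 and Eif4g1, it was called and lowest in library 1 by the same ratio, against 20.0% of all genes. The median ratio of library 1 to the others was 1.17 for members and 0.99 for all genes tested. By role, 9 of the 14 eIF3 genes and 5 of the 6 detected elongation factors were among the higher ones, and 3 of the 4 lower ones were eIF4G genes. With further scaling within 10 bins of gene length the counts were 5 eIF3 genes, 2 elongation factors and 0 eIF4G genes. Of these 5, Eif3a had not been among the 9.

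Scaled counts, that is, counts at a common library size, showed the pattern for single members. For Eif1 they were 10907, 7750.5 and 7253 in libraries 1, 2 and 3, and the pooled ratio of library 1 to the others was 1.45 with an exact 95% interval of 1.42 to 1.49. The interval covers counting error only. Eef1a1 had 120266, 90388 and 100430.0 scaled counts. Library 1 was the highest by scaled count, while library 3 was the highest by TPM, which divides by an effective length that the table lists per library. For Eif4g2 the scaled counts were 11507, 13789 and 16134, a ratio of 0.77 with an interval of 0.76 to 0.79. Eif5 ran the same way, with 1048, 1226 and 1460.4 scaled counts. In both genes libraries 2 and 3 differed too, and Eif4g2 was 1.17 times and Eif5 1.19 times as high in library 3 as in library 2.

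Among members with 300 or more counts, the widest called ratio of highest to lowest library was that of Eif3f, whose scaled counts were 238, 134 and 147. Library 1 was 1.70 times as high as the others pooled, with an interval of 1.42 to 2.03 (adjusted p = 4.27e-08, chi-square test with Benjamini-Hochberg adjustment). By TPM, which divides by length, Eif3f was nearly level at 12.5, 12.4 and 11.4. A retained-intron transcript of 588 bases took 0%, 26.4% and 11.3% of its TPM. Next came Eif3i at a ratio of highest to lowest of 1.55, with scaled counts of 2495, 1610.0 and 1909, and Eif3j1 at 1.52, with 124, 81.6 and 98.6. The methyltransferase genes Eef1akmt2 and Eef1akmt1 had ratios of 1.52 and 1.51, with scaled counts of 378, 249 and 279.8 and of 676, 447 and 473. Library 1 was the highest in each of these. The same held for Eif1, for Eif3m at 1.49 (2999, 2017 and 2082), for Eef1e1 at 1.46 (446, 306 and 321), for Eif1b at 1.45 (455, 314 and 319) and for Eif3e at 1.45 (5544, 3833 and 4029). The call of Eif3j1, at an adjusted p of 0.020, was lost without library 2 (adjusted p = 0.16), with library totals alone (0.091) and in the M4 counts (0.53). Outside the count limit, Eif4ebp3 had a ratio of 3.66 on 70 counts in all.

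The ratio of library 1 to the others moved with gene length. Across the 63 members its Spearman correlation with the listed gene length was -0.63, and across all genes tested it was -0.49. The genes share the same 3 libraries, so these values describe the libraries. Short members such as Eef1b2, Eif3k and Eif1 stood higher in library 1, and long ones such as Eif4g3 and Eif4g2 stood lower. Not all long members did, with ratios of 1.38 for Eif3j1 (5413 bases) and 1.05 for Eif3a (4377 bases). When counts were also scaled within 10 bins of gene length, the correlations were 0.15 and 0.03. With that scaling, 38 of 63 members differed among the libraries against 44.9% of all genes, 15 were higher in library 1 against 11.8%, and 1, Eif2b2, was lower in library 1 against 14.5%. Of the 15, the long genes Eif3a, Eif5b, Eif4ebp2 and Eif2ak1 had not been among the 28 before. The ratio of Eif1 then went from 1.45 to 1.16, that of Eef1b2 from 1.38 to 0.97, that of Eif3k from 1.36 to 0.96, that of Eif4g2 from 0.77 to 0.88 and that of Eif4g3 from 0.73 to 0.90. Eif3f kept a ratio of 1.65 and Eif3j1 went from 1.38 to 1.72. Of the 44 called members, 9 were no longer called, namely Eif4g3 (adjusted p = 0.060), Eif4g1 (0.23), Eef1akmt2 (0.073), Eif1b (0.12), Eif3k (0.18), Eif3g (0.082), Eif6 (0.055), Eif2b1 (0.30) and Eif4a2 (0.12). The ratio crossed 1 in 6 of the 44, namely Eef1b2, Eif3k, Eif5a, Eif4e2, Eef2 and Eif4b. The part that the markers of other cells play in these differences was not tested. In 23 of the 28 members higher in library 1, library 2 was the lowest. The erythroid sum and the plasma cell sum, which was mostly Igkc, were also lowest there, but not every plasma cell marker was. The share with this order among all genes higher in library 1 was not computed, so the count is not read as particular to the members. The neutrophil sum was high in library 1 alone.

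**Figure D2:**
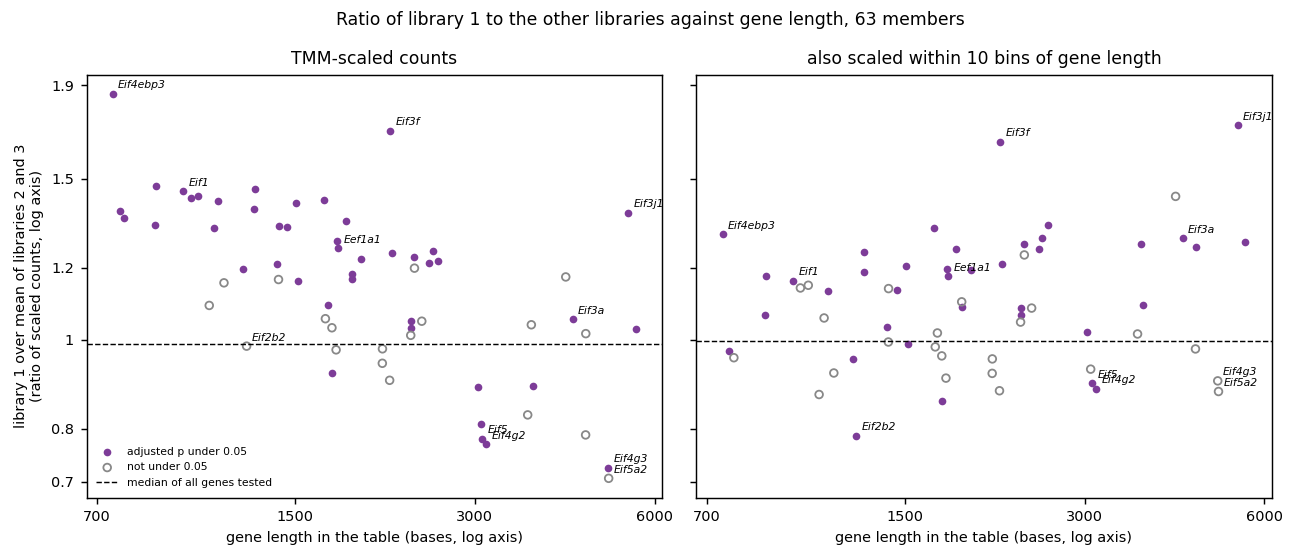
Ratio of the scaled count in library 1 to the mean of libraries 2 and 3 (log axis) against the listed gene length in bases (log axis) for the 63 members tested, with TMM scaling (left) and with further scaling within 10 bins of gene length (right). Filled points had an adjusted p under 0.05, and the dashed line is the median of all genes tested. The slope seen on the left, with a Spearman correlation of -0.63, is replaced on the right by 0.15.

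The transcript tables showed which form of each gene carried its reads. Of the 63 detected members, 59 had 2 or more annotated transcripts. The median share of TPM in transcripts annotated as protein_coding was 93.7% for members and 84.2% for all 9391 such genes. In 3 members the leading transcript, the one with the largest share, was of another type in every library, against 10.3% of all genes. In Eef1b2 it was Eef1b2-205, annotated as a target of nonsense-mediated decay, with 55.2%, 55.8% and 53.5% of the TPM in libraries 1, 2 and 3. In Eif2s1 it was the processed transcript Eif2s1-203 of 433 bases, with 53.0%, 54.4% and 53.6%, ahead of the coding transcript of 3405 bases. In Eif4ebp1 it was the processed transcript Eif4ebp1-202, with 71.3%, 78.2% and 80.3%. The second transcript table put the coding Eif4ebp1-201 first in every library, so this case depended on the table. That table gave Eef1b2-205 38.8%, 41.1% and 36.0%, and put a coding transcript first in library 3 with 36.6%. For Eif2s1 it kept Eif2s1-203 first in every library.

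The leading transcript was not the same in all libraries for 8 members, against 23.4% of all genes. These were Eif1a, Eif1ax, Eif2ak4, Eif2b5, Eif4g1, Eif4g3, Eif5 and Eef2k. In Eif1ax the coding transcript held 36.5%, 53.9% and 47.6% of the TPM, and a retained-intron transcript of 416 bases held the rest. In Eif5 the coding transcripts Eif5-212 and Eif5-202 traded places, with 54.2% against 14.1% in library 1 and 25.4% against 48.5% in library 2. The second transcript table showed no such exchange, with Eif5-212 first in every library at 51.8%, 44.0% and 46.8%. In that table Eif1ax, Eif1a and Eif4g3 also had 1 leading transcript in all libraries. In Eif4g1, Eif4g1-216 (coding) led libraries 1 and 2 with 32.6% and 34.3%, and a form annotated as a target of nonsense-mediated decay led library 3 with 30.9%. Eef2k was led by Eef2k-201 at 36.3%, Eef2k-203 at 38.6% and Eef2k-204 at 58.5% in turn, all of them coding. Eif4g3, Eif2b5 and Eif2ak4 had 1 coding form in front in library 1 and another in libraries 2 and 3, and Eif1a changed its leading form in library 3. The transcript tables named different leading transcripts for 17 members in at least 1 library, against 32.4% of all genes.

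Eif4a2 was led by a coding transcript but had little of its TPM in such forms. Its protein_coding transcripts together took 35.5%, 34.6% and 34.5%, and Eif4a2-202, the first of its 25 annotated transcripts, took 23.4%, 28.3% and 25.9%. The decay target Eif4a2-204 took 17.9%, 10.7% and 14.4%, and Eif4a2-210, another one, took 19.9%, 18.4% and 14.0%. Eif2ak2 had 46.6%, 47.4% and 44.2% of its TPM in coding transcripts. By contrast, Eef1a1, Eef2, Eif3e, Eif3g, Eif3h, Eif3k and Eif4b each had over 95% in every library. Since TPM is per length, a short noncoding form can take a large share of the TPM from few reads.

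**Figure D3:**
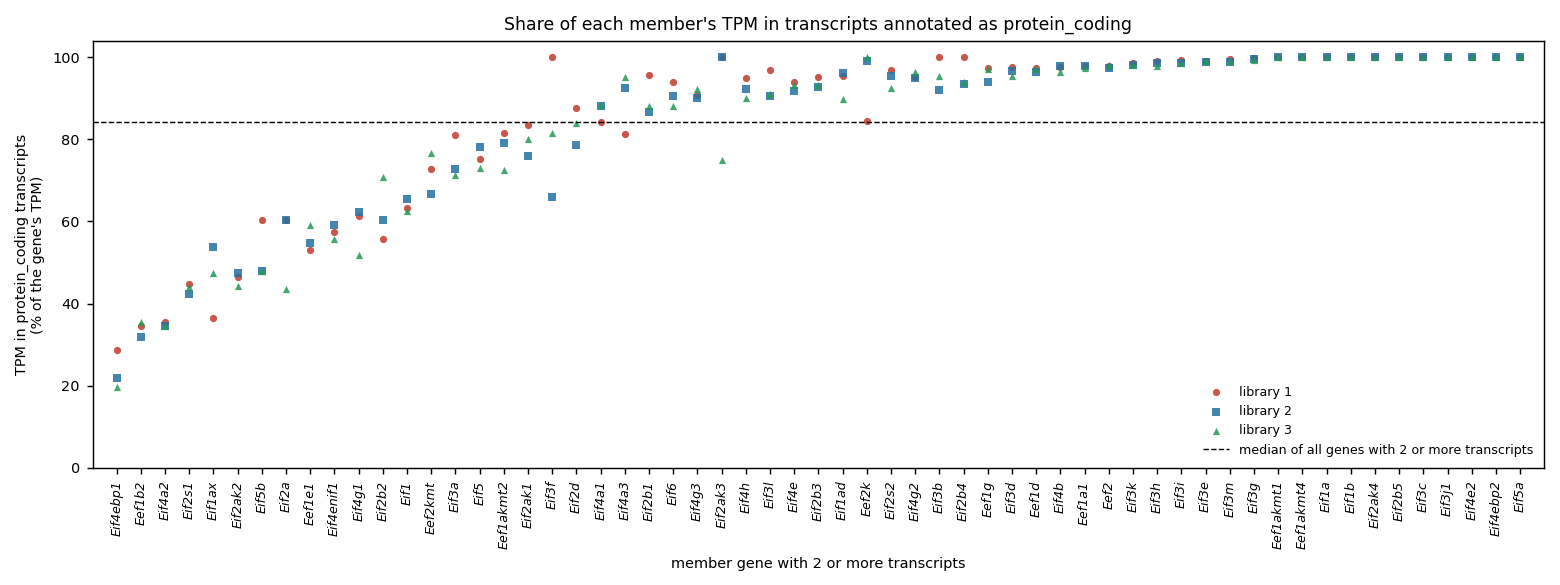
Percent of each member's TPM in transcripts annotated as protein_coding, in libraries 1 (circles), 2 (squares) and 3 (triangles), for the 59 detected members with 2 or more transcripts, ordered by their mean. The dashed line is the median of all such genes, 84.2%. Eif4ebp1, Eef1b2 and Eif4a2 were lowest, and library 2 of Eif3f fell to 65.9%.

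The deposit holds another gene table, with whole-number counts for the older GENCODE M4 annotation, which shows what depends on the annotation and the counting. Over all genes compared, the median ratio of M4 to expected counts was 1.21. No member of 60 stood more than 2-fold above this median in every library, against 1.17% of all genes, and 6 stood more than 2-fold below it, against 12.6%. These were Eif4ebp2, Eif5a2, Eif4e3, Eif4h, Eif4e and Eif1a. Eif4ebp2 had 86, 121 and 98 M4 counts against 732, 745 and 713 expected counts, and Eif5a2 16, 20 and 29 against 77, 115 and 106. The others had mean ratios of 0.44 (Eif4e3), 0.49 (Eif4h), 0.49 (Eif4e) and 0.50 (Eif1a). At the other end, Eif2b4 had a ratio of 2.23 and Eif3f of 2.08, with 484, 310 and 280 M4 counts. In both tables, library 1 was the highest for Eif3f.

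The ratio rose with the coding part of the transcripts. Across the 60 members, its Spearman correlation with the TPM-weighted percent of transcript length that is coding was 0.68, and across 9966 genes it was 0.53. Genes share the libraries and the annotation, so both values are descriptions. The coding part was 11.5% in Eif4ebp2 and 9.13% in Eif5a2. It was 83.7% in Eif2b4. Eif3f, at 35.5%, and Eef1b2, at 24.3% with a ratio of 1.88, stood above other members with such low values, and Eif4e, at 48.5%, stood below them.

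**Figure D4:**
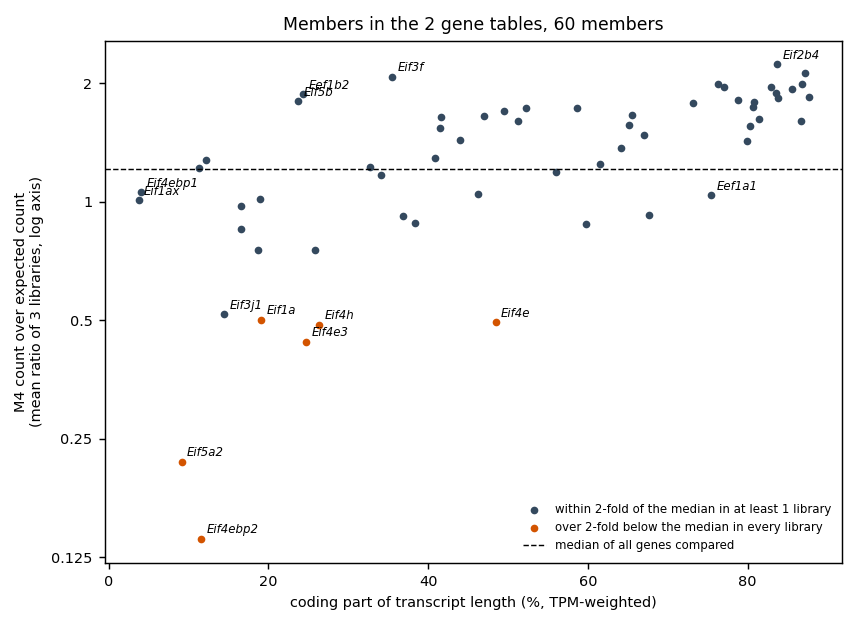
Mean ratio of M4 count to expected count over the 3 libraries (log axis) against the TPM-weighted percent of transcript length that is coding, for the 60 members at 1 or more CPM (counts at a common library total) in both tables. The dashed line is the median ratio of all genes compared, 1.21, and orange points lay over 2-fold below it in every library. The ratios run from 0.14 for Eif4ebp2 to 2.23 for Eif2b4.

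Near-identical copies limit how surely some counts belong to a member. A search of the annotated transcripts with the leading transcript of each member found copies of 95% identity or more over 200 bases or more for 23 members, among them 43 pseudogenes of 17 members. Of these pseudogenes 16 reached 1 TPM in every library. They took little of the combined level in most cases. For Eef1a1, 9 pseudogenes took 0.62%, 0.68% and 0.78% of the TPM of the gene and its copies. For Eif1, 12 pseudogenes took 4.04%, 3.20% and 3.13%. The largest share by its mean was that of Eif4a1, at 7.11%, 5.74% and 6.33%, nearly all from Eif4a-ps4, which was 99.9% identical to it over 1218 bases. For Eef1g, with Gm4366 as the main copy, the pseudogenes took 5.36%, 4.25% and 4.59%. The read-through genes AC115631.1 and Gm20696 shared stretches of 504 bases with Eif4ebp3 and 219 bases with Eif4e3 at 100% identity, so the counts of Eif4ebp3 and Eif4e3 are uncertain.

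The mRNA of eIF1 is a textbook case of a gene that its own product controls, since eIF1 makes ribosomes pass over start codons in poor context. A purine at the third base before the start codon and a G just after it mark a good context. The stretches below run from 6 bases before the start codon, which is in capitals, to 1 base after it. They come from the coding transcript with the highest TPM of each gene (GENCODE M21), and are shown because both eIF1 genes lack the purine and the G, while 3 of the most abundant members have both.
Eif1: tatcgtATGt
Eif1b: tgtcgcATGt
Eef1a1: gcaaaaATGg
Eef2: gccaccATGg
Eif5a: cttaaaATGg
Members as a group did not stand apart. Both features were found in 28 of 60 detected members with such a stretch, or 46.7%, and in 46.5% of 9629 detected genes. Neither was found in 4 members, or 6.67%, and in 6.90% of all genes. Besides Eif1 and Eif1b, these were Eef1akmt1 and Eif3b.

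Many mRNAs of the translation apparatus, ribosomal proteins and eEF1A above all, start with a C followed by a run of pyrimidines, the 5′ terminal oligopyrimidine motif through which mTOR controls them. The RefSeq promoter table (GRCm38.p6) matched 50 of the 66 members. A C at the annotated start base followed by pyrimidines, with at least 5 C or T in a row on the transcribed strand, was found in 1 of the 50, Eif3f, and in 3.01% of 27025 entries. A run of 5 that began within 5 bases of the annotated start was found in 12 of the 50, or 24%, and in 21.2% of entries. The windows below span 30 bases around the start, with the run in capitals, and are shown because Eif3f alone met the first rule while Eef1a1 and Eif3l met only the wider one.
Eif3f, chr7:108934405-108934434, plus strand: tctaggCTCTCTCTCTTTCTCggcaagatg
Eef1a1, chr9:78481705-78481734, minus strand: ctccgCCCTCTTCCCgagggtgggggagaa
Eif3l, chr15:79075213-79075242, plus strand: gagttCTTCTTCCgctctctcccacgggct
The runs were 15, 10 and 8 bases long, and as marked they began at -4, -5 and -5 bases from the annotated start. These matches describe letters near an annotated start, which can lie away from the start used in these cells, and the files hold no measure of the distance. So no run shown here, that of Eef1a1 included, is known to be the first bases of an mRNA.

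Other genes of the pathway were read from lists that do not overlap the members. All 8 mitochondrial translation factors measured were detected, with the elongation factor Tufm highest at 66.8, 70.4 and 78.3 TPM and the release factor Mtrf1 lowest at 3.89, 4.71 and 3.57 TPM. Of these 8, 4 were called among the libraries. For this and the lists that follow, 54.3% of all genes tested were called. Of 7 termination and recycling genes 5 were detected and 5 of 6 tested were called. Mcts1, a recycling factor, was highest at 107, 86.5 and 85.6 TPM, and Gspt2, a paralog of the release factor eRF3, was lowest at 0.21, 0.41 and 0 TPM. All 5 genes of poly(A)-binding proteins and their partners were detected, and 4 were called. Pabpc1, the main cytosolic poly(A)-binding protein, was at 211, 223 and 220.0 TPM, below its inhibitor Paip2 at 312, 313 and 291 TPM. Pabpc4 was lowest at 7.51, 8.15 and 10.8 TPM.

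Of 7 genes that control eIF4F, all were detected, 5 were called and 3 were lower in library 1, against 20.0% of all genes tested. Pdcd4, an inhibitor of eIF4A, was highest at 225, 353 and 394 TPM, above Eif4a1 in every library, and the kinase gene Mtor was lowest at 4.19, 10.3 and 7.74 TPM. Both of these, with Larp1, were the ones lower in library 1. With scaling within bins of length, 2 were, since the ratio of Larp1 went from 0.74 to 0.92. The genes of the integrated stress response, which follow phosphorylation of eIF2alpha, had a median ratio of highest to lowest scaled count of 1.81, beside 1.28 for the members and 1.37 for all genes tested. With scaling within bins of length these medians were 1.43, 1.21 and 1.29. Of 8 measured, 7 were detected, all 7 were called and 4 of them were 1.5-fold or more apart, against 54.3% and 25.0% of all genes tested. After scaling within bins of length 6 were called, against 44.9%. Ppp1r15a, which brings a phosphatase to eIF2alpha, was at 55.3, 104 and 64.1 TPM, high in library 2, and its ratio of highest to lowest scaled count was 1.86. Atf4 was the highest of the list by mean at 68.3, 76.2 and 81.9 TPM, Ddit3 was at 50.9, 46.1 and 45.2 TPM, and Chac1 was lowest at 0, 0.10 and 0.22 TPM. The enzymes that make hypusine on eIF5A were both detected, Dhps at 20.9, 35.6 and 20.3 TPM and Dohh at 6.55, 11.0 and 9.46 TPM, and 1 of them was called. Of the 2 selenocysteine factors, Eefsec at 23.9, 33.2 and 29.5 TPM and Secisbp2 at 31.1, 31.0 and 35.0 TPM, the adjusted p of the chi-square test was 0.67 and 0.058.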

How the data were processed

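Per the deposited readme of each library, the authors aligned reads to the transcriptome of mouse mm10 with the GENCODE M21 annotation and deposited a gene table with expected counts and TPM. Per the file headers, a transcript table from this alignment adds the percent of TPM per transcript within its gene, and estimated counts and TPM stand in a second transcript table, which per the deposited readme was built from reads and an index of transcripts. The authors also deposited whole-number counts per gene for GENCODE M4. Tools, versions and use of strand are not given in these sources. Expected counts were rounded to whole numbers. Library totals were scaled by TMM (edgeR 4.0.16, R 4.3.3), and each gene with 30 or more counts was tested by chi-square with Benjamini-Hochberg adjustment over all genes, in Python 3.11.15 with scipy 1.17.1, numpy 2.4.6 and pandas 2.3.3. Left out were 26345 entries that name no mouse gene, with 0.117%, 0.124% and 0.135% of counts in libraries 1, 2 and 3. DESeq2 1.42.0 gave size factors as an alternative. Exact 95% intervals of ratios cover counting error only, because no molecular identifiers are described, so reads can be PCR duplicates. Copies were sought with blastn 2.17.0. M4 and expected counts were put on a common total (CPM) over the genes in both tables, and ratios were set against their median. The test was checked on simulated data. Members and lists were chosen with earlier results of these data known. Values in every library were given for the 10 highest members, members not detected, the highest and lowest of each role, the 10 called members of 300 or more counts with the widest ratio, and members with unusual transcripts or tables. Alternatives were other scalings, count limits, tables and left-out libraries.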

Additional observations from a re-analysis of the deposited data

How the results depend on the processing

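Depth limits members such as Eif4ebp3, Eif2ak3, Eif2ak4 and Eif4ebp1 most, with 70, 153, 183 and 198 counts in all. The number of members higher in library 1, 28 in the main setting, became 18 with library totals alone and 2 at a ratio of 1.5. With scaling within 10 bins of length it was 15, not all of them among the 28. Without library 2 or 3 they numbered 21 and 31. The number of members lower in library 1, 4 in the main setting, was a count added after seeing the data. It became 8 with library totals alone, 1 with length bins and 0 at a ratio of 1.5, and 6 and 2 without library 2 or 3. Of all genes tested, 19.7% were higher and 20.0% lower in library 1 in the main setting. With length bins these shares were 11.8% and 14.5%. Of the 44 members called among the libraries, leaving out 1 library gave 16 to 42. It gave 16 when library 1 was left out, against 17.5% of all genes. The median level was 37.9 TPM in the second transcript table and 53.0 to 58.3 TPM with 1 library left out. Members with differing leading transcripts numbered 8, and 4 to 7 with 1 library left out, 4 of them without library 1. At 1.5-fold, 20 members differed between the gene tables in place of 6. With a run of 4 at the start base 3 members had pyrimidines there, against 4.49% of entries. With a run of 5 within 5 bases of it 12 did, against 21.2%. Where no share of all genes stands beside a count in this section, its change is not read as particular to the members. The other settings run kept these counts within 1.5-fold. For the called members, the ratio of library 1 to the others crossed 1 with length bins for Eef1b2 (0.97), Eif3k (0.96), Eif5a (0.95), Eif4e2 (0.99), Eef2 (1.02) and Eif4b (1.09). With library totals alone it did so for Eif2ak2 (0.97), Eif3a (0.98), Eif3c (0.96) and Eif5b (0.95), and in the second transcript table for Eif2ak2 (0.98). With library 2 or 3 left out the ratio ran from 0.96 to 1.16 for Eif2ak2, 0.96 to 1.17 for Eif3a, 0.95 to 1.13 for Eif3c and 0.96 to 1.103 for Eif5b, with the low end without library 3 for Eif2ak2 and without library 2 for the others. The causes were not tested. No paired analysis was possible because the libraries form 1 group.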
